A study of Rattus norvegicus with 10 samples.

Results

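IGHV4-2 was the only gene of the rat IGHV4 subgroup that was read in the spleens of 10 immunized Wistar rats. Its reads were chosen by annotation alone, as productive immunoglobulin heavy chain sequences whose first named variable gene was IGHV4-2, and they numbered 45207 of 1615896 productive reads. In all, 141 IGHV genes were read, so the subgroup stands for 1 gene and the other 140 genes form its comparison. Every IGHV4-2 read was annotated with the same allele, IGHV4-2*01, and 45187 of the 45207 reads named no other gene. The remaining 20 listed a second candidate gene behind it.

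The study compared the antibody repertoires of animals immunized with different antigens. The HuD group was made of 5 rats immunized with recombinant human HuD, a neuronal RNA-binding protein that is a target of autoantibodies in a paraneoplastic syndrome. The DNP group was made of 5 rats immunized with keyhole limpet hemocyanin, a large carrier protein, modified with dinitrophenyl residues. Both groups received the antigen once in complete Freund's adjuvant and in 3 boosts in incomplete adjuvant, and no animal without an antigen was analysed here. Each animal gave 1 library of variable domains from total splenocyte RNA, with 60647 to 259834 productive reads, and all libraries shared a sequencing run. A read is a collapsed sequence, that is, the sequenced copies that carried the same molecular tag. The assay amplifies only heavy chain transcripts, so the cell types in the spleen suspension cannot be checked from other markers, and more cells and more RNA per cell cannot be told apart.

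A heavy chain variable domain is assembled from a V (IGHV), a D (IGHD) and a J (IGHJ) gene. The V gene encodes the frameworks FR1 to FR3 and the complementarity-determining regions CDR1 and CDR2, while CDR3 spans the junction and is the most diverse part. After antigen contact, B cells expand as clones and acquire somatic mutations, which accumulate mainly in the CDRs and are selected for binding. Here a clone is 1 IGHV gene, 1 IGHJ gene and 1 CDR3 amino acid sequence in 1 animal, and positions are IMGT positions, which give equivalent residues of all V genes the same number.

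The peptides that recur through the results are shown first. The CDR1 and CDR2 below were the most frequent forms in IGHV4-2 reads. The 4 CDR3 sequences that follow them were the IGHV4-2 CDR3s read in the most animals, and the last is the most abundant IGHV4-2 clone of the animal HuD1, shown for contrast. No germline sequence and no genome coordinates of IGHV4-2 were used here.
Most frequent CDR1: GFNFNDYW
Most frequent CDR2: INKDSSTI
CDR3 in 9 animals, with alanine and phenylalanine in the middle: VREAFGVDY
CDR3 in 9 animals, with glutamate and leucine in the middle: VREELGVDY
CDR3 in 9 animals, with aspartate and leucine in the middle: VREDLGVDY
CDR3 in 8 animals, with glutamate and phenylalanine in the middle: VREEFGVDY
Largest IGHV4-2 clone of HuD1: ARWYYYDY
The CDR1 form was carried by 62.0% of IGHV4-2 reads, between 47.7% and 77.5% per animal. The CDR2 form was carried by 46.3%, between 29.4% and 62.1% per animal. In total 692 distinct CDR1 and 1266 distinct CDR2 sequences were read with this gene, so CDR2 had the more varied sequences.

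IGHV4-2 took a few percent of the repertoire and varied widely between animals of the same antigen. It made up 4.30%, 2.83%, 0.898%, 1.56% and 0.995% of the productive reads in HuD1 to HuD5, against 0.684%, 8.98%, 1.30%, 2.34% and 7.37% in DNP1 to DNP5. The highest and the lowest animal were both in the DNP group, and all HuD animals lay within the range of the DNP animals, with DNP2 and DNP5 above them. Means were 2.12% ± 1.44 in HuD animals and 4.13% ± 3.78 in DNP animals (SD, n = 5 each). Counting error was small beside this spread, and the widest 95% Wilson interval, which covers counting error only, was 7.20% to 7.54% in DNP5.

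**Figure D1:**
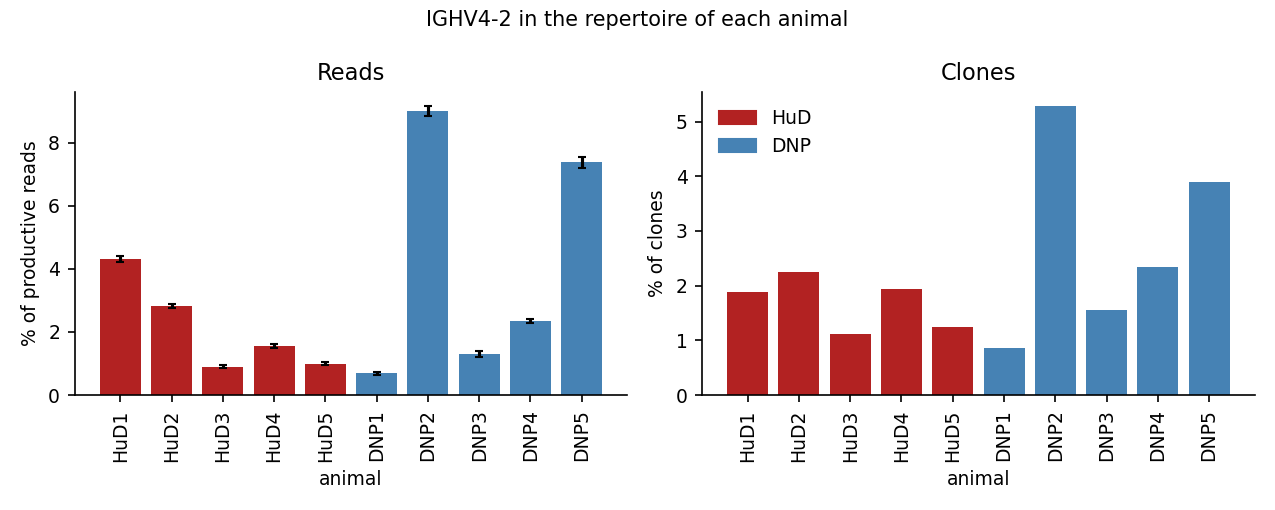
Share of IGHV4-2 in each animal, as percent of productive reads (left, error bars are 95% Wilson intervals) and as percent of clones (right), with HuD animals in red and DNP animals in blue. DNP2 and DNP5 reach 8.98% and 7.37% of reads and DNP1 only 0.684%, with all 5 HuD animals between them.

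By its mean share of 3.13% ± 2.90 (SD, n = 10) IGHV4-2 ranked 11 among the 141 IGHV genes. Its rank within an animal ran from 8 to 25 in the HuD animals and from 3 to 26 in the DNP animals. On the log2(RPM + 10) scale, where RPM is reads per 1000000 productive reads, the HuD minus DNP difference was -0.60 (p = 0.484, two-sided exact permutation test over all sets of 5 animals). In the edgeR quasi-likelihood fit over the 81 IGHV genes with at least 100 reads, the log2 fold change of HuD over DNP was -1.40 ± 0.70 (SE), with a Benjamini-Hochberg adjusted p of 0.242. With an animal left out it ran from -1.65 without HuD1 to -0.50 without DNP2. IGHV4-2 was therefore not called, where 2 genes were, 2.47% of those tested. It stood in place 23 by p-value, and 19 genes had an unadjusted p under 0.05.

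The size of the apparent difference depended on single animals in both directions. Without DNP2 the log2 difference of shares was -0.17, and without DNP5 it was -0.24, against -0.60 with all animals. It grew to -1.10 without DNP1, -0.93 without HuD1 and -0.86 without DNP3. Each of these also lay within the spread of the animals. The 3 IGHV genes whose shares were ordered most like that of IGHV4-2 over the 10 animals were IGHV1-57 (Spearman's rho 0.855), IGHV7-6 (0.806) and IGHV6-14 (0.782). These shares come from the same libraries and sum to the same total, and the 3 genes were rare, with mean shares of 0.101%, 0.0376% and 0.00890%.

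Counting each clone once narrowed the range but kept the overlap. IGHV4-2 accounted for 1.88%, 2.24%, 1.12%, 1.94% and 1.25% of the clones of HuD1 to HuD5, against 0.865%, 5.28%, 1.56%, 2.34% and 3.90% of those of DNP1 to DNP5. The HuD minus DNP difference was -1.10 percentage points (p = 0.254, two-sided exact permutation test). With an animal left out it ran from -1.58 without DNP1 to -0.48 without DNP2. There were 390 to 1569 IGHV4-2 clones in HuD animals and 154 to 1970 in DNP animals.

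The depth of clones showed 1 animal apart from the rest. IGHV4-2 clones held 13.7, 4.04, 3.87, 3.20 and 3.07 reads on average in HuD1 to HuD5, and 3.79, 5.65, 5.11, 4.02 and 7.76 in DNP1 to DNP5. HuD1 was more than 3 times the other HuD animals. The ratio to the other IGHV genes of the same animal had a mean log2 of 0.18 ± 0.62 (SD, n = 10, p = 0.385, two-sided exact sign-flip permutation test), higher in 4 animals and lower in 6. It was 0.0614 without HuD1, 0.107 without DNP2 and 0.0903 without DNP5, and at most 0.24, without DNP1. Most clones were small in both groups, and 70.1% to 80.2% of IGHV4-2 clones were read only once. Molecules of a large clone can share a short tag and the CDR3 bases, so the reads of large clones may be undercounted. This was not tested.

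The 10 largest clones of an animal took 32.0% to 68.7% of its IGHV4-2 reads. In HuD1 the clone ARWYYYDY had 1386 reads, 20.6% of the animal's IGHV4-2 reads, and it was found in no other animal. The same animal held ARHIITLDY with 1001 reads and ARHITTLDY with 683, which differ at 1 residue. The largest clone had 1037 reads in HuD2, 172 in HuD3, 401 in HuD4 and 358 in HuD5. In DNP1 it had only 81 reads (ARLSYYGYHDY), in DNP2 2150, in DNP3 197 (ASTYYGY), in DNP4 901 (VTRGDPYDNWFAY) and in DNP5 1527 (ARLGWHGWFAY). The largest clones of the 10 animals thus had 10 different CDR3s, from 7 residues in DNP3 to 17 in HuD5. Some were also read elsewhere. ASTYYGY had 30 reads in DNP1 and 28 in DNP4. The largest clones of HuD4, DNP2, DNP4 and DNP5 were each read in another animal, with at most 8 reads there.

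The CDR3 of IGHV4-2 clones was shorter than that of the other genes. Mean length was 10.8, 11.5, 11.1, 11.0 and 11.6 residues in HuD1 to HuD5, and 11.4, 12.8, 11.6, 11.7 and 11.4 in DNP1 to DNP5. Clones of other IGHV genes averaged between 11.9 and 12.5 residues in HuD animals and between 11.5 and 12.4 in DNP animals. The IGHV4-2 minus other difference was -0.59 residues ± 0.49 (SD, n = 10, p = 0.00781, two-sided exact sign-flip permutation test) and was negative in 9 animals, the exception being DNP2 at 0.41. When each read rather than each clone was counted, it was -0.34 and did not pass (p = 0.242, exact permutation test).

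The gap to the other genes was wider in HuD animals, but its difference between the antigens did not pass after adjustment. It averaged -0.97 residues in HuD animals and -0.22 in DNP animals, a difference of -0.75 (p = 0.00794, two-sided exact permutation test, the smallest p that 5 animals against 5 can give). Adjusted over the 8 within-animal contrasts compared between the groups, this p was 0.0635 by the Benjamini-Hochberg method, so it did not pass. Within IGHV4-2 alone, the difference between HuD and DNP clones was -0.58 residues (p = 0.0635, exact permutation test). It was -0.33 without DNP2 and -0.68 without DNP1. When clones of an animal with the same genes and length and at most 1 differing residue were joined into lineages, the difference within IGHV4-2 was only -0.12 (p = 0.643, exact permutation test).

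**Figure D2:**
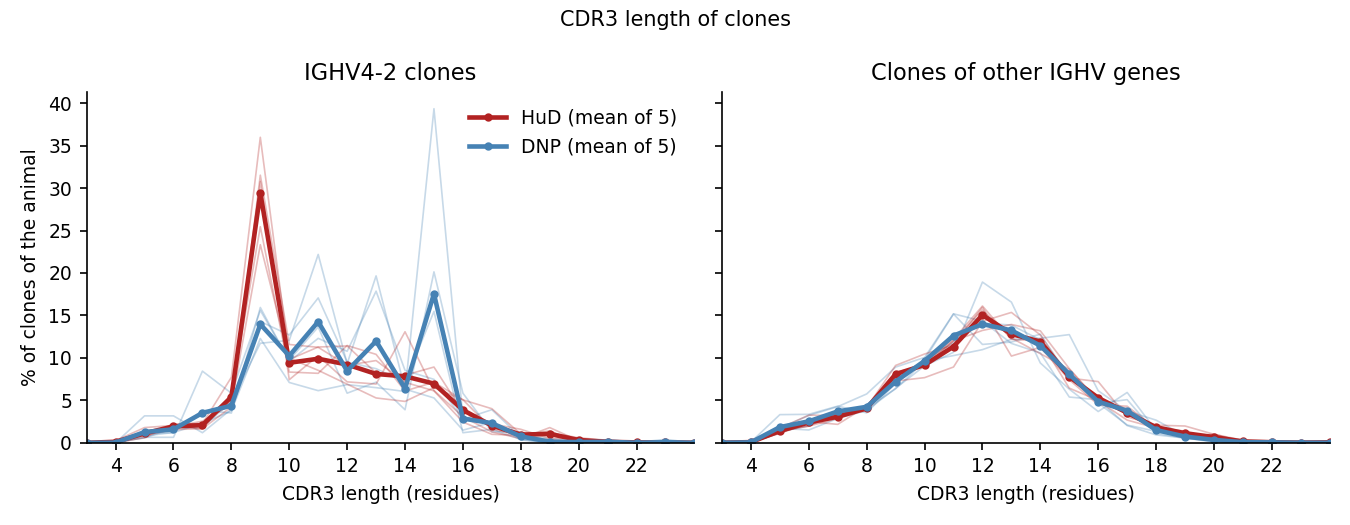
Percent of clones of an animal (y axis) by CDR3 length in residues (x axis) for IGHV4-2 (left) and all other IGHV genes (right). Thin lines are animals and thick lines with points are the means of 5 animals. The IGHV4-2 clones of HuD animals peak at 9 residues and those of DNP2 at 15, where the other genes show a broad maximum around 12.

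The distribution of lengths was uneven. Clones with 9 residues made up 36.0%, 23.3%, 30.8%, 31.5% and 25.4% of IGHV4-2 clones in HuD1 to HuD5, against 14.3%, 12.3%, 15.6%, 15.9% and 11.7% in DNP1 to DNP5. All HuD animals lay above all DNP animals, and all 10 lay above the 6.36% to 9.11% of clones with that length among other genes. Of the 22 CDR3 lengths found up to 25 residues, this was the only one without overlap between the groups, 4.55% of them, and it was singled out after the values had been seen. Counted in lineages, 14.1% to 23.4% in HuD animals overlapped with 11.7% to 17.1% in DNP animals. At the other side of the distribution, 15 residues were found in 39.3% of the IGHV4-2 clones of DNP2, and in 5.29% to 20.1% of those of the other 9 animals.

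Part of the 9-residue peak came from a recurrent CDR3 family. Its members start with valine or alanine followed by arginine and glutamate, hold any residue at places 4 and 5, then glycine and valine, and end with any 2 residues, as in the 4 shared sequences printed above. The family was defined after the sequences had been seen, so its values are given as a description with no test. It comprised 422 distinct CDR3s, 697 clones and 3689 reads of IGHV4-2, and 533 reads of all other genes, so that 87.4% of the reads with such a CDR3 were IGHV4-2 reads.

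The family formed 11.4%, 8.67%, 14.9%, 14.8% and 12.8% of the IGHV4-2 clones of HuD1 to HuD5, against 5.16%, 4.77%, 5.19%, 4.96% and 4.37% in DNP1 to DNP5. The groups did not overlap, and the 5 DNP values were close together although their libraries differed several-fold in depth. Among other IGHV genes it formed 0.00693% to 0.240% of clones. As a share of the whole repertoire the groups overlapped: the family had 2784, 4061, 1083, 3030 and 2579 reads per 1000000 in HuD1 to HuD5, against 200.8, 3247, 610.1, 1443 and 2455 in DNP1 to DNP5. Counted in lineages they overlapped too, with 1.53% to 5.10% of IGHV4-2 lineages in HuD animals and 1.30% to 6.50% in DNP animals. As a share of IGHV4-2 reads, the family had 6.47%, 14.4%, 12.1%, 19.4% and 25.9% in the HuD animals, against 2.94%, 3.61%, 4.70%, 6.17% and 3.33% in the DNP animals, with HuD1 just above DNP4. The groups thus separated relative to the clones or reads of IGHV4-2, and overlapped relative to its lineages or to the whole repertoire.

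**Figure D3:**
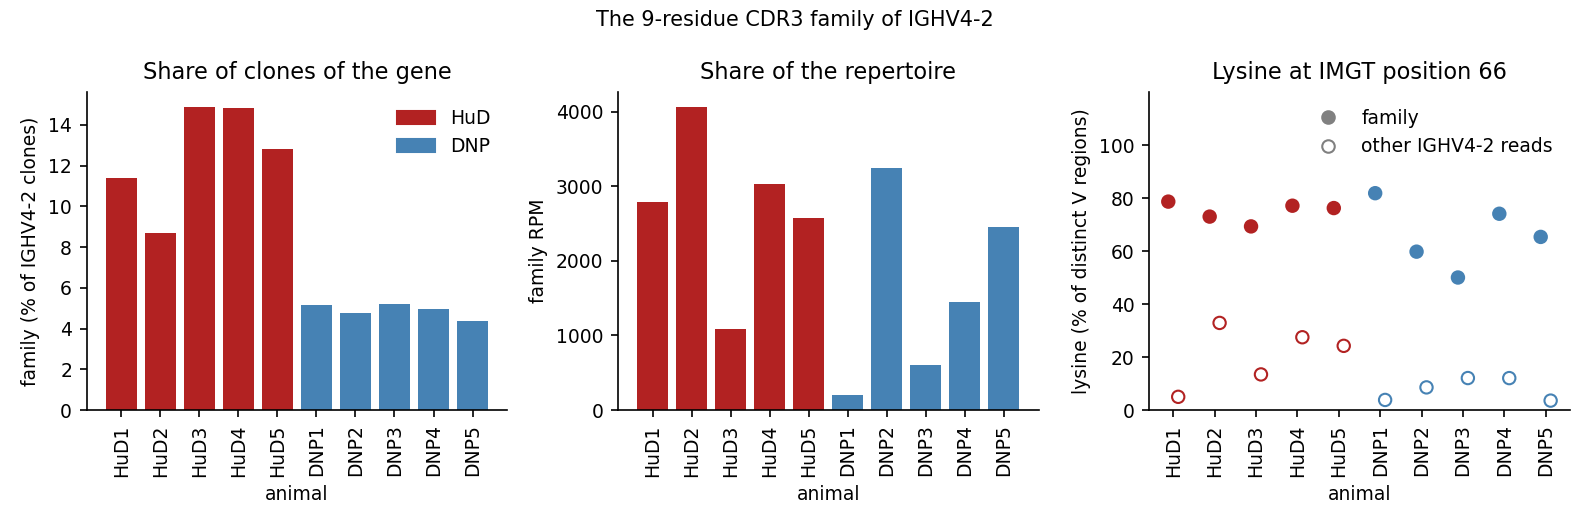
The 9-residue CDR3 family in each animal, as percent of IGHV4-2 clones (left), as RPM (middle), and the percent of distinct V regions with lysine at IMGT position 66 (right), in the family (filled circles) and in other IGHV4-2 reads (open circles). The HuD animals (red) all exceed the DNP animals (blue) in the left panel only, and the filled circles lie above the open ones in every animal.

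Within the family, the residues that its definition left free were not evenly used. Of its 422 CDR3s, 62.6% started with valine and 37.4% with alanine. Glutamate was the most frequent residue at place 4 (28.2%), followed by aspartate (20.4%), and phenylalanine (24.6%) and leucine (22.5%) led at place 5. At the last 2 places aspartate (43.6%) and tyrosine (49.3%) were the most frequent residues. IGHJ2 was used by 89.8% of its reads, against 67.1% of the other IGHV4-2 reads. IGHD4-3 was the D gene annotated for 55.7% of its reads, against 3.92% of the rest.

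The V region that came with these CDR3s also had its own residues. Lysine in place of the common asparagine at position 66, just behind CDR2 (N66K), was carried by 72.3% of the distinct V regions in the family, against 13.7% of the others. In single animals these shares ran from 50.0% to 81.8% in the family and from 3.55% to 32.9% outside it, and the family was higher in all 10. The 2 extremes in the family rested on 16 distinct V regions in DNP3 and 22 in DNP1. Family members fell into 3 lineages in DNP1, the fewest, and 31 in HuD4, the most. V regions of the same lineage can be related, so they are not independent observations. The arginine of S63R in CDR2 was present in 29.5% of family V regions against 7.64% of the others, and was higher in the family in 9 of 10 animals, DNP1 being the exception. T64I was present in 24.2% against 13.9%, and Y37H in CDR1 in 11.2% against 4.84%. The most frequent CDR2 form, INKDSSTI, was accordingly carried by 21.5% of family reads and 48.5% of the others.

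Some IGHV4-2 clones were read in more than 1 animal. Of 8447 distinct combinations of IGHV gene, IGHJ gene and CDR3, 215 (2.55%) were read in at least 2 animals, against 4168 of 380398 (1.10%) for the other genes. Among the other genes, a CDR3 annotated with different IGHV genes counted separately, which cannot happen within IGHV4-2. The shares of IGHV4-2 and of the other genes are therefore not on equal terms. In HuD1 to HuD5, 9.55%, 5.93%, 10.5%, 8.02% and 7.59% of IGHV4-2 clones were shared, against 1.79% to 3.19% of clones of other genes. In DNP animals the shares were 4.23% to 15.6% for IGHV4-2, against 1.81% to 6.30% for other genes, and IGHV4-2 was higher in all 10 animals. This comparison was not tested, and 123 of the 215 shared combinations were 9 residues long.

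The family accounted for 100 of the 215 and for 39 of the 59 combinations read in at least 3 animals. Over all IGHV4-2 clones, counted in each animal, it formed 697 of 8779. Because the family was defined after these shared sequences had been seen, its part among them is a description and was not tested. VREAFGVDY had 12, 2, 31, 39 and 45 reads in HuD1 to HuD5, against 1, 12, 0, 1 and 4 in DNP1 to DNP5. VREELGVDY had 11, 0, 1, 7 and 6 reads in the HuD animals, against 3, 2, 1, 55 and 45 in the DNP animals. These 2 sequences were thus read in both groups, and the animals with the most reads were HuD3 to HuD5 for VREAFGVDY and DNP4 and DNP5 for VREELGVDY. VREDLGVDY was read in 9 animals (59 reads), VREEFGVDY in 8 (60 reads) and AREAFGVDY in 7 (53 reads).

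Further sequences of the family were more uneven. VREELGVRD had 193 reads, of which 44, 34 and 111 were in HuD2, HuD4 and HuD5, with 1 in HuD1 and 3 in DNP2. VREDRGVDY, AREEFGVDY and VREELGVNY were each read in 5 animals with 51, 25 and 19 reads. The only clone outside the family among the 10 most shared was the 5-residue ARGDY in 7 animals, of whose reads over all genes only 22.0% were IGHV4-2. Of the 215 shared combinations, 67 were read in HuD animals only, 53 in DNP animals only and 95 in both. Identical pairs of tag and CDR3 in more than 1 animal were rare, 14 of 45193 for IGHV4-2 and 2 of 3687 for the family.

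The DNP animals held other groups of related CDR3s, which were also singled out after the values had been seen. A CDR3 with the stretch GPNYGG was found in 329 clones and 6703 reads of DNP2, 60.3% of its IGHV4-2 reads, and 93.6% of these clones had 15 residues. Without them IGHV4-2 would have been 3.57% of the reads of DNP2 and its mean CDR3 length 12.4 residues, which is still the longest of the 10 animals. The same stretch was read with IGHV4-2 in 6 further animals, with at most 75 reads, in HuD2. Of all reads with GPNYGG, 92.3% were IGHV4-2 reads.

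A second group of CDR3s, starting with VTRG as in VTRGDPYDNWFAY, was read with IGHV4-2 only in DNP animals. It had 1105 reads in DNP4 (18.2% of IGHV4-2 reads), 859 in DNP5 (12.7%) and 1 in DNP3, and none in DNP1, DNP2 or any HuD animal. The forms differed between the animals: the largest clone was VTRGDPYDNWFAY with 901 reads in DNP4, and VTRGTGSDNWFAY with 257 reads in DNP5. The same start was read with other IGHV genes in 1 read of the HuD animals and 1489 of the DNP animals, of which 1243 were in DNP5, so only 56.9% of such reads were IGHV4-2.

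IGHJ pairing of IGHV4-2 differed from that of the other genes for 1 of 4 IGHJ genes. IGHJ1 was used by 5.08% to 8.63% of IGHV4-2 clones in HuD animals and 5.29% to 7.94% in DNP animals, against 8.93% to 11.2% and 8.81% to 10.7% of clones of other genes. It was lower in all 10 animals, with a mean difference of -3.18 percentage points ± 1.78 (SD, adjusted p = 0.00781, two-sided exact sign-flip permutation test with Benjamini-Hochberg adjustment over 4 genes). Counted in lineages the difference was -1.66 points and no longer passed (adjusted p = 0.0625, exact permutation test).

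IGHJ2, the most used J gene, was found in 55.5% to 69.7% of IGHV4-2 clones in HuD animals and 40.7% to 68.8% in DNP animals, against 47.8% to 56.3% and 48.4% to 54.0% of clones of other genes. The mean difference of 6.97 points ± 8.60 (SD) was positive in 9 animals and did not pass (adjusted p = 0.0781, exact permutation test). DNP5 was the exception, and without it the difference was 8.88 points (adjusted p = 0.00521, exact permutation test). In this animal IGHJ3 was used by 31.8% of IGHV4-2 clones, the most of all animals. Its largest IGHV4-2 clone, ARLGWHGWFAY, used IGHJ3, as did its largest VTRG clone. VTRG clones made up only 5.75% of its IGHV4-2 clones. IGHJ3 differed by -3.52 points (adjusted p = 0.141) and IGHJ4 by -0.27 points (adjusted p = 0.838, exact permutation tests).

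**Figure D4:**
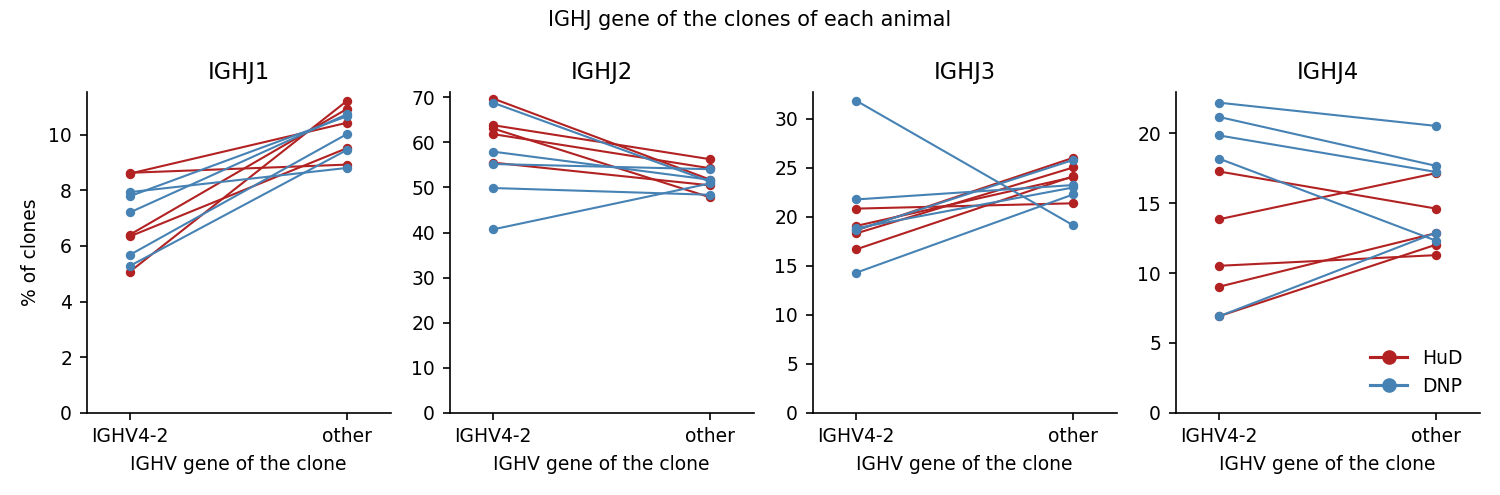
Percent of clones (y axis) that use each IGHJ gene, for IGHV4-2 and for all other IGHV genes, with a line per animal (HuD red, DNP blue). IGHJ1 is lower with IGHV4-2 in all 10 animals, and DNP5 runs opposite to the other animals for IGHJ2 and IGHJ3.

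D gene annotation differed in its means with overlapping ranges. IGHD1-11 was named for 16.2% ± 10.1 of IGHV4-2 clones and 11.9% ± 1.61 of clones of other genes (SD, n = 10). DNP2 alone reached 43.8%, and the other 9 animals averaged 13.1% of IGHV4-2 clones. IGHD4-3, the D gene of the shared family, was named for 10.1% ± 4.40 against 6.22% ± 1.09, and IGHD1-12 for 6.59% ± 2.70 against 11.7% ± 1.81. These shares were not tested. The net charge of the CDR3, counted as lysine and arginine minus aspartate and glutamate, differed from other genes by -0.0525 (p = 0.207, two-sided exact sign-flip permutation test). This value depended on what was counted: it was -0.17 in clones of at least 2 reads (p = 0.0117), 0.0782 in lineages (p = 0.00586) and 0.0125 without the 9-residue family (p = 0.807, exact permutation tests).

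Residue variation was taken as the percent of positions of FR1 to FR3 at which a distinct V region differed from the residue that is most frequent for its gene over all animals. Somatic mutations, allelic differences between outbred animals and sequencing errors all count towards it. IGHV4-2 varied less than other genes, with 5.63%, 6.12%, 6.35%, 6.30% and 6.41% in HuD1 to HuD5 and 7.45%, 6.85%, 6.45%, 8.19% and 8.00% in DNP1 to DNP5. Other genes had 7.06% to 8.04% in HuD animals and 7.88% to 9.43% in DNP animals. IGHV4-2 was lower in all 10 animals, with a mean difference of -1.25 percentage points ± 0.75 (SD, p = 0.00195, two-sided exact sign-flip permutation test, the smallest p that 10 animals allow).

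Between the antigens, IGHV4-2 V regions of HuD animals varied less, without overlap between the groups. The difference was -1.23 percentage points (p = 0.00794, two-sided exact permutation test, the smallest p possible). Other genes moved the same way, and the gap between IGHV4-2 and the other genes did not differ detectably between the groups (-0.14 points, p = 0.825, exact permutation test). Both results on variation failed when only reads with at least 2 sequenced copies were kept, at -0.98 points for IGHV4-2 minus other genes (p = 0.0840) and -1.14 points for HuD minus DNP (p = 0.246, exact permutation tests). As few as 17 distinct IGHV4-2 V regions of an animal, in DNP3, then remained.

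The variation was concentrated in CDR2 and in the start of FR3. Averaged over positions, it was 3.54% in FR1, 7.64% in CDR1, 3.05% in FR2, 14.9% in CDR2 and 8.67% in FR3 (means of 10 animals). The position that varied most was 68, where 49.3% ± 10.3 of V regions (SD, n = 10) did not have the common threonine, mostly by T68S and T68I. It was followed by position 66 with 31.2% ± 11.7, and positions 64 and 63 of CDR2 with 28.5% ± 6.22 and 26.8% ± 7.61. Position 92 in FR3 followed at 26.1% ± 7.63, mainly by S92N.

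At the other end, 13 of 96 positions differed in fewer than 1% of V regions on average. Among them were the cysteine at 23 (0.369%) and the tryptophan at 41 (0.415%), which belong to the conserved core of immunoglobulin domains. The cysteine at the last position of FR3 was not among them. It differed in 2.89% of V regions on average, between 1.80% and 3.79% per animal. Reads in which the V region matched the most frequent residue at every position numbered 2797 of 45057, or 6.21%. Their share was lowest in DNP2 (1.41%) and highest in DNP3 (17.7%).

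**Figure D5:**
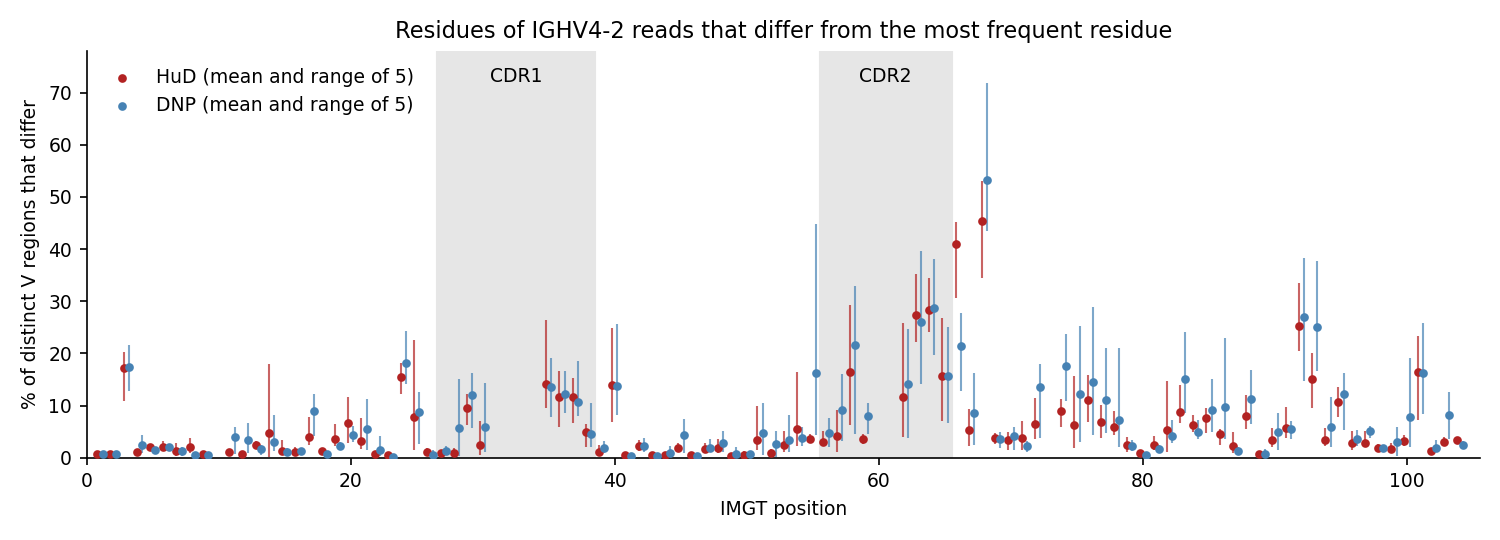
Percent of distinct IGHV4-2 V regions that differ from the most frequent residue (y axis) at each IMGT position (x axis), with the mean (point) and range (line) of 5 HuD animals (red) and 5 DNP animals (blue), and CDR1 and CDR2 shaded. The 4 most variable positions, 68, 66, 64 and 63, lie at the end of CDR2 and the start of FR3, and position 66 is higher in HuD animals, at 30.6% to 45.2% against 12.7% to 27.7%.

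Of the 96 positions, 2 did not overlap between the groups, 2.08% of those compared, and they went in opposite directions. Position 66 differed in 30.6% to 45.2% of V regions in HuD animals, against 12.7% to 27.7% in DNP animals. Position 59, an aspartate of CDR2, differed in 2.73% to 4.48% in HuD animals, against 4.53% to 10.5% in DNP animals. The lysine of N66K was found in 15.3%, 40.5%, 25.0%, 40.3% and 39.1% of the V regions of HuD1 to HuD5, against 7.46%, 11.4%, 13.9%, 16.6% and 6.59% in DNP1 to DNP5, and overlapped in HuD1 and DNP4. Outside the 9-residue family it was carried by 4.98%, 32.9%, 13.4%, 27.5% and 24.2% in the HuD animals, against 3.80%, 8.54%, 12.1%, 12.0% and 3.55% in the DNP animals.

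Other substitutions varied between animals of the same group. E55Q was present in 39.8% of the V regions of DNP2 and in at most 1.71% in any other animal. K75R was highest in DNP5 (24.1%), followed by HuD5 (14.7%) and DNP1 (11.9%), and S62G in HuD3 (21.3%) and DNP1 (20.3%).

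Finally, IGHV4-2 sequences were productive about as often as those of other genes, 86.9% ± 2.10 in HuD animals and 88.8% ± 2.19 in DNP animals, against 89.3% ± 1.81 and 88.3% ± 4.48 for other genes (SD, n = 5 each). An IGHV4-2 read stood for 1.28 ± 0.25 sequenced copies in HuD animals and 1.50 ± 0.57 in DNP animals (SD, n = 5 each). HuD1, DNP2 and DNP5, the animals with the highest shares, also had the smallest percentages of reads with only 1 copy, 72.2%, 75.8% and 74.2%, against 87.1% to 96.9% in the other 7. The log2 difference of HuD and DNP shares was -0.76 when copies were counted in place of reads (p = 0.524) and -0.62 among reads with at least 2 copies (p = 0.714, exact permutation tests).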

How the data were processed

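Immunoglobulin heavy chain variable domains of 10 spleens, 5 per antigen, were analysed from 1 table per animal. The authors merged read pairs with PEAR and collapsed them with MIGEC by molecular tag and 10 CDR3 bases, at a minimum UMI count of 1. They annotated genes and IMGT-gapped amino acids with High-VQuest. Neither the release of this annotation nor that of its germline set was found in the sources used here. The only numeric measurement, deposited by the authors as a count, is the number of sequenced copies behind each collapsed sequence. Each collapsed sequence was used as 1 read, in 60647 to 259834 productive reads per animal. This minimum keeps single-copy sequences, in which errors cannot be corrected by further copies and can add to the numbers of clones and residue differences.

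Reads with IGHV4-2 as the first named gene were taken, 45207 in all; lines that were not productive were left out. Of these, 150 lacked a region and were left out of residue counts. Groups came from the sample labels. The members and lists were chosen with earlier results of these data known. Values per animal are named for genes with at least 100 reads, for the largest clone of each animal, for up to 10 clones read in at least 3 animals, and for the 3 IGHV genes of most similar share. The 9-residue family, the GPNYGG and VTRG groups, the named second clones and the single substitutions were chosen after their values were seen.

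Usage of 81 IGHV genes with at least 100 reads was tested with edgeR 4.0.16 (quasi-likelihood, TMM, Benjamini-Hochberg, threshold 0.05) in R 4.3.3. limma 3.58.1 and DESeq2 1.42.0 were alternatives. Other tests were two-sided exact permutations over all sets of 5 animals (smallest p 0.00794) or 1024 sign flips of 10 animals (smallest p 0.00195), with Python 3.11.15, numpy 2.4.6, pandas 2.3.3 and scipy 1.17.1. Figures used matplotlib 3.10.9. The scripts were tested on simulated data. Alternatives included each read or only reads of at least 2 copies, clones of at least 2 reads, lineages (clones of an animal joined at 1 residue difference), and leaving out each animal.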

Additional observations from a re-analysis of the deposited data

Results flagged for a closer look

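Across 26 sets of 5 animals examined for an animal far from the others, 3 stood out, where chance would mark about 1 in 20. HuD1 had 13.7 reads per IGHV4-2 clone, against 3.07 to 4.04 in the other HuD animals. DNP2 had a mean IGHV4-2 CDR3 length of 12.8 residues, against 11.4 to 11.7 in the other DNP animals. DNP2 also used IGHJ4 in only 6.90% of its IGHV4-2 clones, against 18.2% to 22.2% in the other DNP animals. In this animal 329 of the clones carried the GPNYGG stretch, whose most abundant members used IGHJ2.

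The CDR3 length gap between IGHV4-2 and other genes differed between HuD and DNP animals by -0.75 residues (p = 0.00794, two-sided exact permutation test, adjusted p = 0.0635 over 8 contrasts). After adjustment this difference did not pass. The gap was negative in all 5 HuD animals and in 4 of 5 DNP animals.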

How the results depend on the processing

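With 5 animals per antigen and gene shares that vary several-fold between animals, even large differences can be missed. In counts simulated for the 81 tested genes, the edgeR fit called 0.75% of 2-fold and 37.75% of 8-fold changes. The permutation tests cannot go below 0.00794 between antigens. The share of IGHV4-2 (17 alternatives), its share of clones and its reads per clone (14 each) kept their direction and did not pass the threshold in any. The count of called IGHV genes, 2, was 16 with limma, 14 with DESeq2 and 0 with clones in place of reads, and 0 to 30 with an animal left out, 0 without HuD1, HuD4 or HuD5 and 30 without DNP2. IGHV4-2 was called in none of its 18 alternatives (adjusted p 0.225 to 0.637). With the replicate number as a block, 13 genes were called, and the pairing by number left the share of IGHV4-2 at -0.60 (p = 0.500, exact permutation test). Deviations of animals of the same number had correlations of -0.14, -0.07, 0.29, 0.10 and -0.03. These show no clear pairing by number but are too few to exclude it.

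Counting each read once, the CDR3 length gap to other genes was -0.34 residues, and the difference of that gap between HuD and DNP was -0.49 (p = 0.437, exact permutation test). In lineages the latter difference was -0.29 (p = 0.0556, exact permutation test). The CDR3 length difference within IGHV4-2 was -0.83 in clones of at least 2 reads (p = 0.0238, exact permutation test) and -0.68 to -0.33 with an animal left out, passing without HuD5, DNP1 or DNP5. Net charge was -0.26 per read (p = 0.0332), -0.17 in clones of at least 2 reads (p = 0.0117) and -0.0701 to -0.0237 with an animal left out, passing without DNP5 (p = 0.0273), but 0.0782 in lineages (p = 0.00586, exact permutation tests) and 0.0125 without the 9-residue family. IGHJ1 fell by 1.66 points in lineages. In clones of at least 2 reads IGHJ2 differed by 12.5 points and IGHJ3 by -8.66, both passing. With an animal left out they were 5.74 to 8.88 and -5.32 to -3.02, passing without DNP5. IGHJ4 was 0.49 in clones of at least 2 reads, 1.09 in lineages, 0.70 without the family and -0.95 to 0.37 with an animal left out, positive without HuD1 (0.27), HuD3 (0.07), HuD4 (0.13) or DNP2 (0.37). Residue variation with at least 2 copies was -0.98 points against other genes and -1.14 between HuD and DNP. Lineages, shares of copies in place of reads, the family left out and the test of the gap between antigens were added after seeing the data. The causes of these changes were not tested.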
